A study of Mus musculus with 6 samples.

Results

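Gremlin 1 (Grem1), a secreted antagonist of bone morphogenetic proteins (BMPs), was described together with 9 genes of the same pathway in mouse thyroid tumor cells. The 9 were the ligand genes Bmp2, Bmp4 and Bmp7, the metalloprotease gene Bmp1, the target genes Id1, Id2 and Id3, and the inhibitor genes Smad6 and Bambi. These 10 are all of the members, of 35027 genes in the deposited table, and each of the 10 symbols was found. Grem1 was picked because its values were higher in the BrafYAP columns, so its levels are given as a description with no test, and the question put to the other 9 was whether they moved with it.

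The study compared tumors driven by YAP, the transcriptional coactivator held back by the Hippo pathway, with tumors that also carried mutant Braf, a kinase of the MAPK pathway. All mice carried a Cre recombinase active in thyroid follicular cells, the RIK allele, which after recombination makes the tetracycline activator rtTA and the red fluorescent protein Kate, and a tetO transgene for mutant, constitutively nuclear YAP. BrafYAP mice carried in addition an LSL-Braf allele, from which mutant Braf is expressed at the endogenous locus in the same cells. Dox, the inducer of the YAP transgene, was given in the chow from 4 weeks of age according to the labels, in mice on a mixed background, and about 20000 Kate-positive cells were sorted from each digested tumor sample for RNA-seq. There were 3 libraries per genotype, YAP replicates 1, 2 and 3 and BrafYAP replicates 1, 2 and 6, and values are given in that order. The labels give the YAP libraries as pools, of 3 tumors each, and the BrafYAP libraries as single tumors (1 tumor each), so pooling and genotype cannot be told apart. No wild-type thyroid and no tumor with mutant Braf alone was analysed here, and both groups were treated with dox.

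BMPs are secreted ligands that bring together type I and type II receptor kinases, which phosphorylate SMAD1, SMAD5 and SMAD9. These join SMAD4, enter the nucleus and switch on target genes such as the ID genes, whose products block basic helix-loop-helix transcription factors, as well as genes for feedback inhibitors such as Smad6. Gremlin 1 binds BMP2, BMP4 and BMP7 outside the cell and keeps them from their receptors, and in many tissues it is made mainly by stromal cells. The products of these genes act after secretion, translation or phosphorylation, none of which was measured by RNA-seq.

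The deposited values are TPM, transcript abundances scaled to a fixed total per library, in which each gene was divided by its whole genomic span, introns included, so they compare a gene between libraries but not one gene with another. For levels between genes, TPM were recomputed from the exonic length of each gene. Depth was 26.2 to 36.9 M estimated reads per library. BrafYAP replicate 6 differed from the other BrafYAP libraries outside the BMP genes too, a point noticed after the values were seen. That library held 554 estimated reads of the thyrotropin receptor gene Tshr, which was at 0 in BrafYAP replicates 1 and 2. Values that changed most without BrafYAP replicate 6 are given beside the reported ones. In bulk samples such as these, fewer cells of a type and less RNA per cell cannot be told apart.

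Grem1 (ENSMUSG00000074934, mm10 chromosome 2, 113746164 to 113758646, minus strand) had deposited values of 1.42, 1.10 and 0.556 in the YAP libraries and 10.9, 13.0 and 29.2 in the BrafYAP libraries. All 3 BrafYAP libraries were above all 3 YAP libraries, and the highest value was that of BrafYAP replicate 6. In estimated reads these were 519, 339 and 203 against 3700, 6224 and 12377, so that no library was close to the detection limit. The group means were 1.03 ± 0.436 (SD, n = 3) and 17.7 ± 10.0 (SD, n = 3), a ratio of 17.3. The log2 difference on log2(value + 1) was 3.10, and on scaled reads, in which the length division is undone and the pseudocount weighs less, it was 4.07. With single libraries left out it ranged from 2.70 (BrafYAP replicate 6 omitted) to 3.37 (BrafYAP replicate 1 omitted). The annotation lists no gene that overlaps Grem1.

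**Figure D1:**
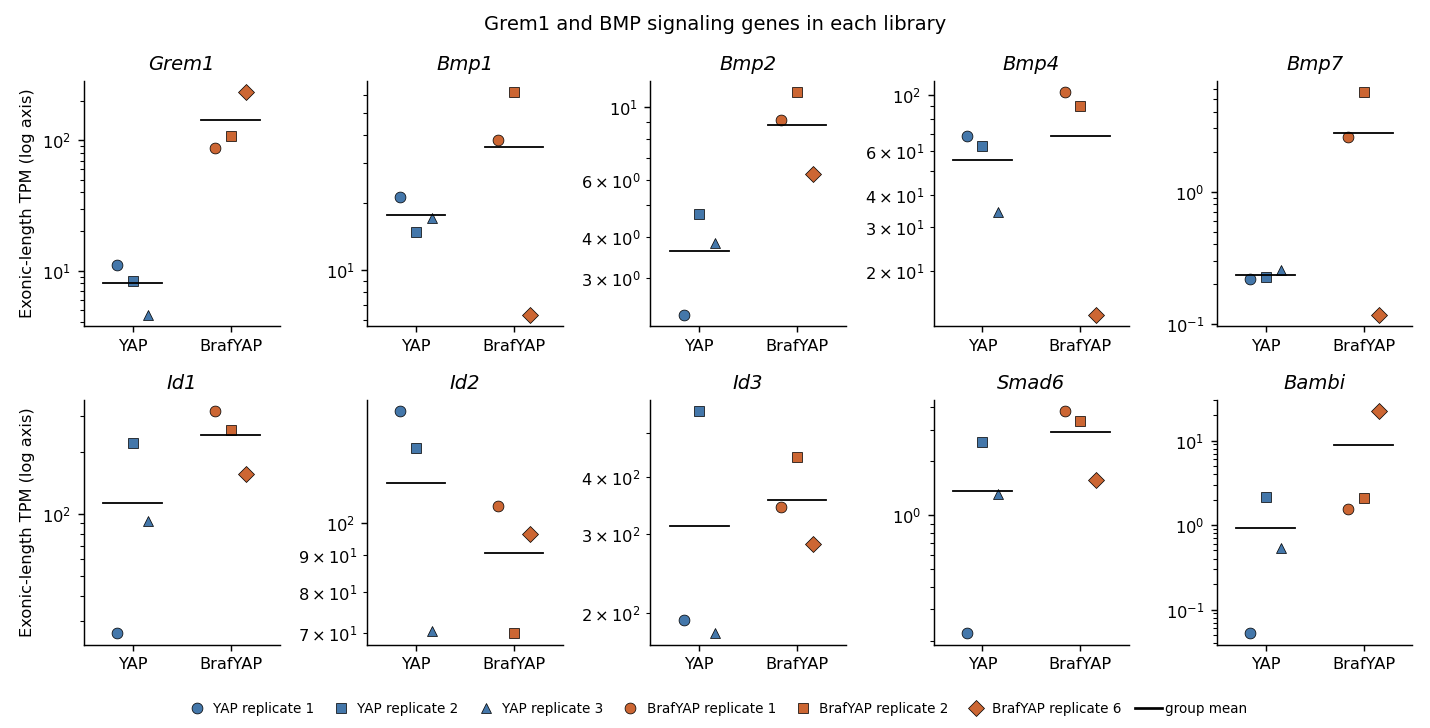
Exonic-length TPM (log axes, scaled separately for each gene) of Grem1 and the 9 other BMP genes in the 3 YAP libraries (blue) and the 3 BrafYAP libraries (orange); the marker shape gives the replicate and the horizontal line the group mean. Among the 10 genes, Grem1 and Bmp2 are the ones whose BrafYAP libraries all lie above all YAP libraries, and BrafYAP replicate 6 (diamond) is the lowest library for Bmp1, Bmp4 and Bmp7.

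Because gremlin 1 is both an inhibitor of BMP ligands and, in several tissues, a product of a BMP-responsive gene, the region upstream of it was searched for short sequences bound by SMAD, TEAD (the DNA-binding partner of YAP) and AP-1 proteins. The 250 bases before the RefSeq start were read from RefSeq (build GRCm38.p6), in which 5 of the 10 genes had an entry (Grem1, Bmp4, Id2, Id3 and Smad6). Both strands were searched for GGCGCC (a GC-rich element of SMAD1 and SMAD5), CAGAC (a SMAD-binding element), GGAATG (TEAD) and TGANTCA (AP-1). The matches found did not overlap each other. They occur in 9.59%, 42.2%, 12.6% and 6.75% of the 32851 RefSeq promoters of this length. The promoters of Grem1, of Bmp4, the most abundant of the 3 ligands, and of Smad6, the intracellular inhibitor, are shown 5′ to 3′ with the matches in capitals. They lie at chr2:113758649-113758898, chr14:46390670-46390919 and chr9:64022060-64022309, all on the minus strand.
Grem1: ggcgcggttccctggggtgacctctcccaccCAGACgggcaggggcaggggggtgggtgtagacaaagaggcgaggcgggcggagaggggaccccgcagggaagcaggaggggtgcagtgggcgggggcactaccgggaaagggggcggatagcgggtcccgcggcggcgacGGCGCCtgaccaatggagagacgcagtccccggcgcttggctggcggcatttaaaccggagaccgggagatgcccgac
Bmp4: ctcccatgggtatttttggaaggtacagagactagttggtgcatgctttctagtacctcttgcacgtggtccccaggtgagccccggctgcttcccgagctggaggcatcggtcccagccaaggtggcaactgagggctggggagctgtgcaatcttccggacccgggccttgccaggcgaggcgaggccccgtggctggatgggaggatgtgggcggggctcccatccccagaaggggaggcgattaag
Smad6: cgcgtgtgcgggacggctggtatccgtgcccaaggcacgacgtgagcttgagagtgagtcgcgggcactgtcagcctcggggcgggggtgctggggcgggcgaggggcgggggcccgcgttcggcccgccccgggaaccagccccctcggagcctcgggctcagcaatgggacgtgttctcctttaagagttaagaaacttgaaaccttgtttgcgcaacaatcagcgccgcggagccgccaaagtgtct
The Grem1 window held GGCGCC once, 78 bases before the start, and CAGAC once, 219 bases before it, and neither GGAATG nor TGANTCA. In the Bmp4 and Smad6 windows none of the 4 was found. The RefSeq windows of Id2 and Id3 lie inside the genes as GENCODE annotates them, so they are not upstream of every annotated start and are not shown. A match is a string of letters and not a measured binding site, and the lack of one says only that these letters are not in these 250 bases.

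Both neighbours of Grem1 on chromosome 2 were looked at because genes of one domain can share regulatory sequence. Scg5, which encodes the chaperone secretogranin 5 and whose nearer edge lies 17715 bases from Grem1, had deposited values of 1.77, 0.762 and 0.442 against 1.11, 0.634 and 2.55, and the groups overlapped (log2 difference 0.26, SE 0.36, adjusted p = 0.703, limma with Benjamini-Hochberg adjustment). Fmn1, the gene of the actin regulator formin 1, whose nearer edge lies 29396 bases from it, had 1882, 869 and 1889 against 707, 759 and 444 estimated reads. Every BrafYAP library was below every YAP library for Fmn1, the opposite order to Grem1, but its log2 difference of -1.48 (SE 0.39) did not pass the test (adjusted p = 0.117). Fmn1 overlaps 7 other annotated genes, and the strand setting of the counting was not given in the sources used here.

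None of the 9 other members passed the adjusted threshold of 0.05 (limma). Among all genes 0.246% passed on deposited values (0.082% higher and 0.164% lower), on which 6 of the 9 were tested, and 0% on scaled reads, on which the 3 others were tested (Bmp2, Bmp7 and Smad6, whose long introns or low level put them below a mean value of 1). At an unadjusted p under 0.05, 1 of the 9 was higher (Bmp2) and 0 were lower, beside 19.9% of all genes on deposited values (10.7% higher and 9.17% lower) and 20.2% on scaled reads (9.68% and 10.5%). The 2 groups did not overlap for 1 of the 9, again Bmp2, beside 28.2% of all genes on deposited values (11.8% higher and 16.4% lower) and 28.7% on scaled reads (11.6% and 17.1%). In the higher direction these shares are near those of all genes. In the lower direction 0 of 9 is below them, with too few genes to read further. With array weights, which count deviating libraries less, 3 of the 9 passed (Bmp2, Bmp7 and Id1). So did 1393 of 7319 genes on deposited values, the scale of Id1, and 2213 of 16834 on scaled reads, the scale of Bmp2 and Bmp7. The log2 difference was positive for 7 of the 9, Bambi among them, beside 3270 of 7319 genes on deposited values and 7465 of 16834 on scaled reads. Their median of 0.93 mixes these scales and is the value of Bambi, which reached the minimum only through BrafYAP replicate 6. It is therefore not read against the medians over all genes, -0.06 on deposited values and -0.12 on scaled reads.

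Of the ligands, Bmp2 (chromosome 2, 133552159 to 133562885) encodes a ligand that signals through SMAD1, SMAD5 and SMAD9 and binds gremlin 1. It had 93, 164 and 146 estimated reads in the YAP libraries and 328, 552 and 283 in the BrafYAP libraries. The lowest BrafYAP library was above the highest YAP library. The fitted log2 difference was 1.25 (SE 0.40, 95% interval 0.303 to 2.204), with an unadjusted p of 0.0167 and an adjusted p of 0.161 (limma), and it stayed between 0.97 and 1.50 when single libraries were left out. In exonic-length TPM, Bmp2 was at 3.61 ± 1.21 against 8.83 ± 2.44 (SD, n = 3).

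Bmp4 (chromosome 14, 46383520 to 46390669), the most abundant of the 3 ligand genes, had deposited values of 8.34, 7.86 and 3.94 against 12.0, 10.4 and 1.58. BrafYAP replicates 1 and 2 were the highest of the 6 libraries and BrafYAP replicate 6 the lowest, so the groups overlapped fully. The log2 difference was -0.03 (SE 0.64, 95% interval -1.54 to 1.47, adjusted p = 0.982). Its sign turned without BrafYAP replicate 6 (0.71, adjusted p = 0.341), and the adjusted p of Bmp4 lay between 0.113 and 0.988 over all settings tried. Bmp4 overlaps the predicted genes Gm15217 and Gm15222, with which it may share reads.

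Bmp7 (chromosome 2, 172868012 to 172940321) was barely detected in the YAP tumors. Estimated reads were 10, 9 and 11 in the YAP libraries and 106, 316 and 6 in the BrafYAP libraries. BrafYAP replicates 1 and 2 were above every YAP library and BrafYAP replicate 6 was below all of them. This gave a log2 difference of 2.27 (SE 1.29, 95% interval -0.77 to 5.30, adjusted p = 0.362). Without BrafYAP replicate 6 it was 3.86 (adjusted p = 0.0415), the 1 change of call among the members when a library was left out, and the adjusted p of Bmp7 ranged from 0.0252 to 0.653 over all settings. Bmp4 and Bmp7 were thus both lowest in BrafYAP replicate 6, the library in which Grem1 was highest.

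How much Grem1 transcript there was per ligand transcript was therefore compared within each library, as exonic-length TPM of Grem1 over the sum of Bmp2, Bmp4 and Bmp7. The ratio was 0.155, 0.123 and 0.119 in the YAP libraries and 0.772, 1.00 and 11.8 in the BrafYAP libraries. The summed transcripts of these 3 ligands exceeded Grem1 in every YAP library and in BrafYAP replicate 1. Both were about equal in BrafYAP replicate 2, and Grem1 exceeded the 3 ligands in BrafYAP replicate 6. Other BMP ligands are not in the sum. Bmp5 alone was at 39.0, 27.1 and 16.1 against 26.2, 27.9 and 126 exonic-length TPM, above the sum in BrafYAP replicate 6, so the ratio does not hold for all BMP ligands. The sum of Bmp2, Bmp4 and Bmp7 itself was 71.2, 67.6 and 38.3 exonic-length TPM against 114, 107 and 19.8, and overlapped between the groups. The ratio contains Grem1 and is a description without a test. Transcripts are not protein, and the ratio says nothing of how much ligand was bound.

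**Figure D2:**
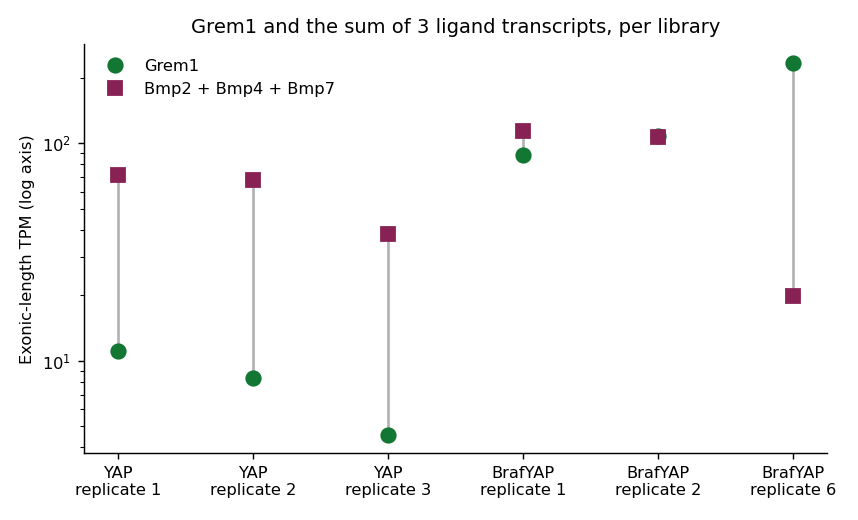
Exonic-length TPM (log axis) of Grem1 (circles) and of the sum of Bmp2, Bmp4 and Bmp7 (squares) in each of the 6 libraries, joined by a grey line. Grem1 lies below the ligand sum in the YAP libraries, the 2 nearly coincide in BrafYAP replicate 2 (107.5 and 107.3), and in BrafYAP replicate 6 Grem1 (235) is above the sum (19.8).

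Bmp1 (chromosome 14, 70474558 to 70520234) is, despite its name, no BMP ligand but a metalloprotease that cuts procollagens and chordin, a BMP antagonist. Its deposited values were 1.58, 1.15 and 1.22 against 2.75, 4.38 and 0.461. As for Bmp4 and Bmp7, BrafYAP replicates 1 and 2 were the highest libraries and BrafYAP replicate 6 the lowest. The log2 difference was 0.42 (SE 0.46, 95% interval -0.66 to 1.50, adjusted p = 0.627) and rested on single libraries, being 0.02 when BrafYAP replicate 2 was omitted and 0.96 when BrafYAP replicate 6 was.

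Of the target genes, Id1 (chromosome 2, 152736251 to 152737410), a direct SMAD target in many cells, had deposited values of 10.1, 88.0 and 33.8 against 118, 92.5 and 58.4. The means were 44.0 ± 39.9 and 89.6 ± 29.9 (SD, n = 3), YAP replicate 1 was the lowest library, and YAP replicate 2 lay within the BrafYAP range. For Id1 the log2 difference was 1.42 (SE 0.73, 95% interval -0.29 to 3.13, adjusted p = 0.325), and it depended on the YAP libraries, with 0.65 without YAP replicate 1 and 2.15 without YAP replicate 2. Neither passed the threshold.

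Id3 (chromosome 4, 136143497 to 136145755), the most abundant of the 10 genes in both groups, had deposited values of 59.2, 177 and 52.4 against 101, 128 and 84.3. YAP replicate 2 was the highest library and the other YAP libraries the lowest, so the BrafYAP values fell inside the YAP range. Its log2 difference was 0.32 (SE 0.49, 95% interval -0.84 to 1.48, adjusted p = 0.736), falling to 0.0048 when YAP replicate 3 was omitted and reaching 0.87 when YAP replicate 2 was. Id2 (chromosome 12, 25093799 to 25097140), which responds to many signals besides BMP, had 40.4, 37.0 and 18.8 against 28.7, 18.6 and 26.3. The groups overlapped, with a log2 difference of -0.32 (SE 0.36, 95% interval -1.18 to 0.53, adjusted p = 0.634), and it ran from -0.66 to -0.13 with a library left out. None of the 3 ID genes had the order of Grem1 within the BrafYAP group: BrafYAP replicate 6, with the most Grem1, was the lowest of the 3 for Id1 and Id3 and the middle one for Id2.

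Smad6 and Bambi encode inhibitors that act inside the receiving cell or at its surface. SMAD6 competes with SMAD4 and blocks receptor-activated SMADs, and its gene (chromosome 9, 63953076 to 64022059) is itself a BMP target. Estimated reads of Smad6 were 8, 81 and 45 against 124, 149 and 64. BrafYAP replicates 1 and 2 were the highest, YAP replicate 2 lay above BrafYAP replicate 6, and YAP replicate 1 was far below the rest. For Smad6 the log2 difference was 1.48 (SE 0.89, 95% interval -0.61 to 3.57, adjusted p = 0.384), 0.51 without YAP replicate 1 and 2.23 without YAP replicate 2.

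BAMBI is a transmembrane protein that resembles a type I receptor without a kinase domain. Bambi had deposited values of 0.0122, 0.512 and 0.117 against 0.347, 0.458 and 5.05, which were 3, 107 and 29 against 80, 149 and 1454 estimated reads. BrafYAP replicate 6 was far above every other library on either scale, and YAP replicate 2 lay above both other BrafYAP libraries in deposited value. Its log2 difference was 0.93 (SE 0.56, 95% interval -0.40 to 2.27, adjusted p = 0.398) on deposited values. There Bambi reached the minimum mean of 1 only through BrafYAP replicate 6, which favors a positive difference, so this fit is not read as a test. On scaled reads, on which both groups reached the minimum, it was 3.23 (SE 1.45, adjusted p = 0.267). Without BrafYAP replicate 6 the difference of the mean log2 values was 0.23 on deposited values and 2.01 on scaled reads. Beside this value, the summed level of 10 endothelial markers was 5.24 to 87.3 exonic-length TPM in the BrafYAP libraries, highest in BrafYAP replicate 6, and 8.51 to 43.3 in the YAP libraries. No marker of that list was at 0 in all 6 libraries, and its part in the Bambi value was not tested.

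**Figure D3:**
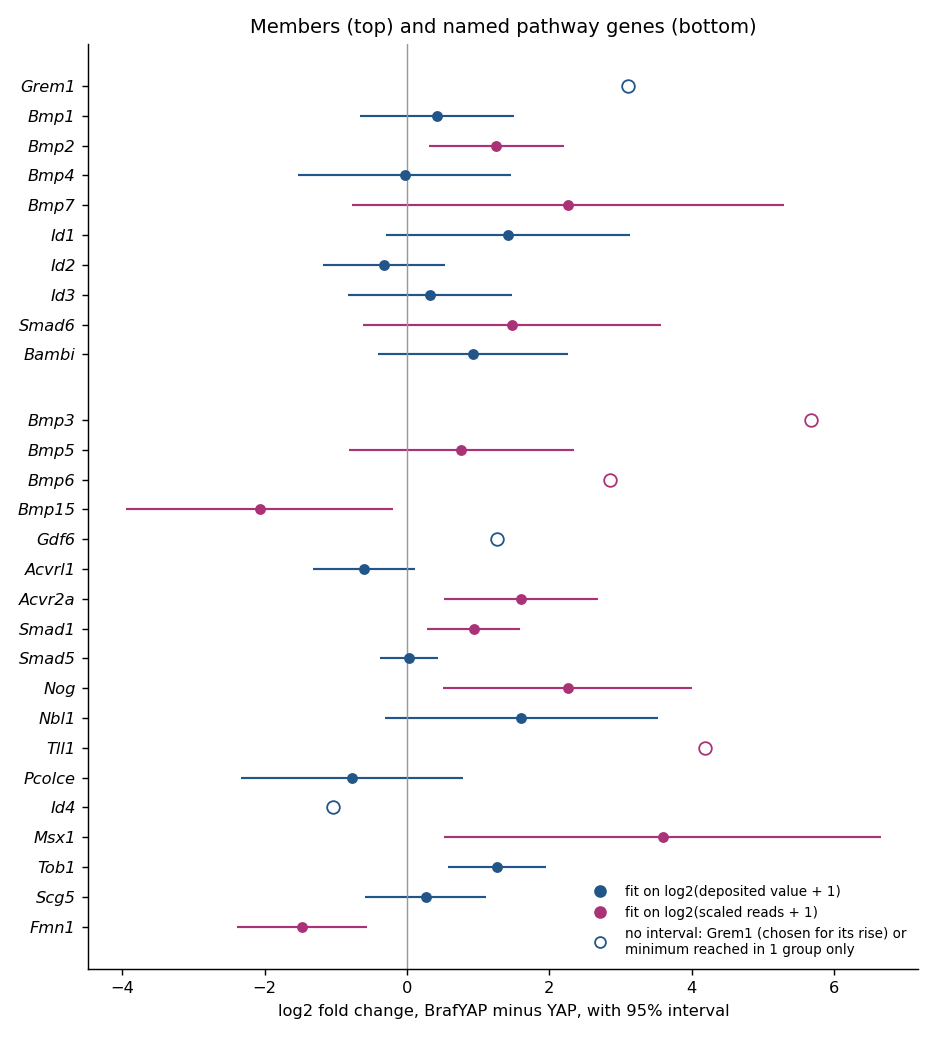
Log2 difference between BrafYAP and YAP (x axis, with its 95% interval) for the members (top) and the named genes of the wider pathway (bottom), from the fit on log2(deposited value + 1) in blue and on log2(scaled reads + 1) in purple. Grem1 is an open point at 3.10 with no interval, because it was chosen for its rise, and so are 5 pathway genes whose mean reached the minimum in 1 group only (Bmp3, Bmp6, Gdf6, Tll1 and Id4). Bambi, which reached it only through BrafYAP replicate 6, is drawn with its interval, which is not read as a test. Among the other 9 members the Bmp2 interval (0.303 to 2.204) is the one that does not include 0, without adjustment for the number of genes.

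By exonic-length TPM, which allows genes to be compared, the order in the YAP tumors was Id3 (mean 311, range 181 to 560), Id2 (114), Id1 (113), Bmp4 (55.2), Bmp1 (17.7), Grem1 (7.98), Bmp2 (3.61), Smad6 (1.37), Bambi (0.911) and Bmp7 (0.234). The ranges of neighbours overlapped except between Id3 and Id2, between Bmp4 and Bmp1, and between Bmp1 and Grem1. In the BrafYAP tumors Grem1 stood in position 3 (143, range 88.1 to 235), after Id3 (357) and Id1 (242) and before Id2 (90.7), Bmp4 (68.8) and Bmp1 (35.5). In that group the ranges of all neighbours in the order overlapped.

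The rest of the pathway was taken from lists drawn up by role, with 58 genes, of which 55 were in the table and 46 were tested. None of the 46 passed the adjusted threshold (limma), and 9 were higher and 2 lower at an unadjusted p under 0.05. Of the 46, 12 were tested on deposited values and 34 on scaled reads. Bmp3, Bmp6, Bmp8a, Bmper and Tll1 reached the minimum of 10 scaled reads, and Gdf6 and Chrd the minimum value of 1, only through the BrafYAP libraries, and Id4 reached the latter only through the YAP libraries. A gene that enters through the group in which it is high had to differ, so these 8 were set aside in a count added after the values were seen. Of the 38 genes whose mean reached the minimum in both groups, 5 were higher and 1 lower at an unadjusted p under 0.05, with a median log2 difference of -0.31. Among all genes held to the same condition, 8.25% were higher and 7.69% lower on deposited values, and 9.29% and 10.2% on scaled reads. The groups did not overlap for 5 higher and 2 lower of the 38. Under the same condition this held for 604 higher and 967 lower of 6412 genes on deposited values. On scaled reads it held for 1738 higher and 2619 lower of 15645 genes.

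Among the other ligands, 9 of 11 were in the table and 7 were tested, of which 3 had a mean at the minimum in both groups. Bmp3 and Bmp6 did not and are given as values with no test, and their log2 differences depend on the pseudocount. Bmp3, an atypical ligand that opposes other BMPs, had 11, 1 and 5 against 159, 120 and 1531 estimated reads (log2 difference 5.69). Every BrafYAP library was above every YAP library, with BrafYAP replicate 6 highest as for Grem1. Bmp6, a ligand known from iron regulation, had 6, 4 and 1 against 43, 84 and 10, where BrafYAP replicate 6 was close to the YAP libraries (log2 difference 2.85). Gdf6, a growth and differentiation factor of the same family, had 178, 313 and 65 against 1194, 4096 and 289, and BrafYAP replicate 6 lay inside the YAP range (2.61 on scaled reads, SE 0.99, adjusted p = 0.208, and on deposited values 1.26, or 1.84 without BrafYAP replicate 6). Bmp15, an oocyte ligand, had 148, 126 and 29 against 11, 21 and 47, and the groups overlapped (-2.07, SE 0.80, adjusted p = 0.214). Bmp5, with the highest exonic-length TPM of these ligands, had 39.0, 27.1 and 16.1 against 26.2, 27.9 and 126, and again only BrafYAP replicate 6 stood out (0.76 on scaled reads, SE 0.67, adjusted p = 0.547, and 0.010 without it).

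The counts of this list and of the lists below stand beside the shares of all genes. At an unadjusted p under 0.05 (limma) these were 9.68% higher and 10.5% lower on scaled reads, and 10.7% and 9.17% on deposited values. Without overlap they were 11.6% higher and 17.1% lower, and 11.8% and 16.4%. A positive log2 difference was found for 7465 of 16834 and 3270 of 7319 genes. No receptor or co-receptor passed the adjusted threshold. Of the 10 in the table, all tested, 2 had a positive log2 difference and the median was -0.43, with 1 higher and 0 lower at an unadjusted p under 0.05, and 1 higher and 2 lower without overlap. The higher one was Acvr2a, a type II receptor, with 48, 46 and 37 against 81, 199 and 249 estimated reads and no overlap (1.61, SE 0.46, adjusted p = 0.134), although it overlaps Orc4 in the annotation. Acvrl1, a type I receptor known from endothelium and the highest of the list in exonic-length TPM, had deposited values of 1.90, 4.20 and 1.47 against 1.22, 1.45 and 0.953. Each BrafYAP library was below each YAP library, but the difference did not pass (-0.60, SE 0.30, adjusted p = 0.317).

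Of 7 SMAD and SMURF genes, all tested, 2 had a positive log2 difference and 1 had an unadjusted p under 0.05. This was Smad1, a receptor-activated SMAD, with 342, 341 and 390 against 572, 973 and 970 estimated reads. The YAP libraries were close to each other and all BrafYAP libraries were above them (0.94, SE 0.28, unadjusted p = 0.0114, adjusted p = 0.143). Smad5, which acts beside SMAD1 and was the highest of the list, had deposited values of 1.45, 1.35 and 1.38 against 1.57, 1.59 and 1.16, with a difference of 0.02 (SE 0.17, 95% interval -0.38 to 0.43, adjusted p = 0.952), the narrowest interval among the named pathway genes.

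Of 17 other antagonists and extracellular modulators, 14 were tested, 9 of them with a positive log2 difference, and 1 gene under an unadjusted p of 0.05. Nog encodes noggin, which like gremlin 1 binds BMP2, BMP4 and BMP7, and had 8, 30 and 6 against 52, 118 and 55 estimated reads. The groups did not overlap for Nog (2.26, SE 0.75, unadjusted p = 0.0184, adjusted p = 0.167), at levels of 2.55 to 4.99 exonic-length TPM in the BrafYAP libraries, far below those of Grem1. Nbl1, an antagonist of the same DAN family as Grem1 and the highest of this list, had deposited values of 5.51, 12.1 and 3.87 against 24.1, 67.0 and 5.90, and BrafYAP replicate 6 lay inside the YAP range (1.61, SE 0.81, adjusted p = 0.319). Without that library the difference of Nbl1 was 2.47, and without BrafYAP replicate 2 it was 0.82, neither past the threshold.

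Among chordin proteases and their enhancers, 3 of 4 were tested. Tll1, a protease of the Bmp1 family, had 12, 6 and 0 against 63, 98 and 137 estimated reads with no overlap (log2 difference 4.19, with no test, since its YAP mean was below the minimum). Pcolce, which enhances procollagen cleavage by BMP1 and was the highest of the list, had deposited values of 53.0, 57.5 and 29.9 against 39.7, 50.6 and 8.30 (-0.77, SE 0.66, adjusted p = 0.536). BrafYAP replicate 6 was again the lowest library for Pcolce, and the difference was -0.0058 without it.

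Of 8 other target genes, 5 were tested and 4 had a positive log2 difference. Id4, the fourth member of the ID family, went the other way from Id1, with deposited values of 2.73, 2.199 and 1.93 against 1.10, 0.445 and 0.338, and all BrafYAP libraries were below all YAP libraries (-2.03 on scaled reads, on which both groups reached the minimum, SE 0.49, unadjusted p = 0.00419, adjusted p = 0.108). Msx1, a homeobox gene that BMP induces in the embryo, had 0, 35 and 3 against 74, 59 and 89 estimated reads without overlap (3.59, SE 1.31, adjusted p = 0.194). Tob1, which encodes an antiproliferative protein that restrains SMAD signaling in bone, had deposited values of 0.920, 2.42 and 1.31 against 3.66, 5.52 and 5.96. The groups did not overlap for Tob1 (1.27, SE 0.29, unadjusted p = 0.00331, adjusted p = 0.0946), which passed without YAP replicate 2 (1.50, adjusted p = 0.0388) and ranged in adjusted p from 0.0109 to 0.289 over all settings. Id4 overlaps A330033J07Rik and Gm49291 in the annotation.

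**Figure D4:**
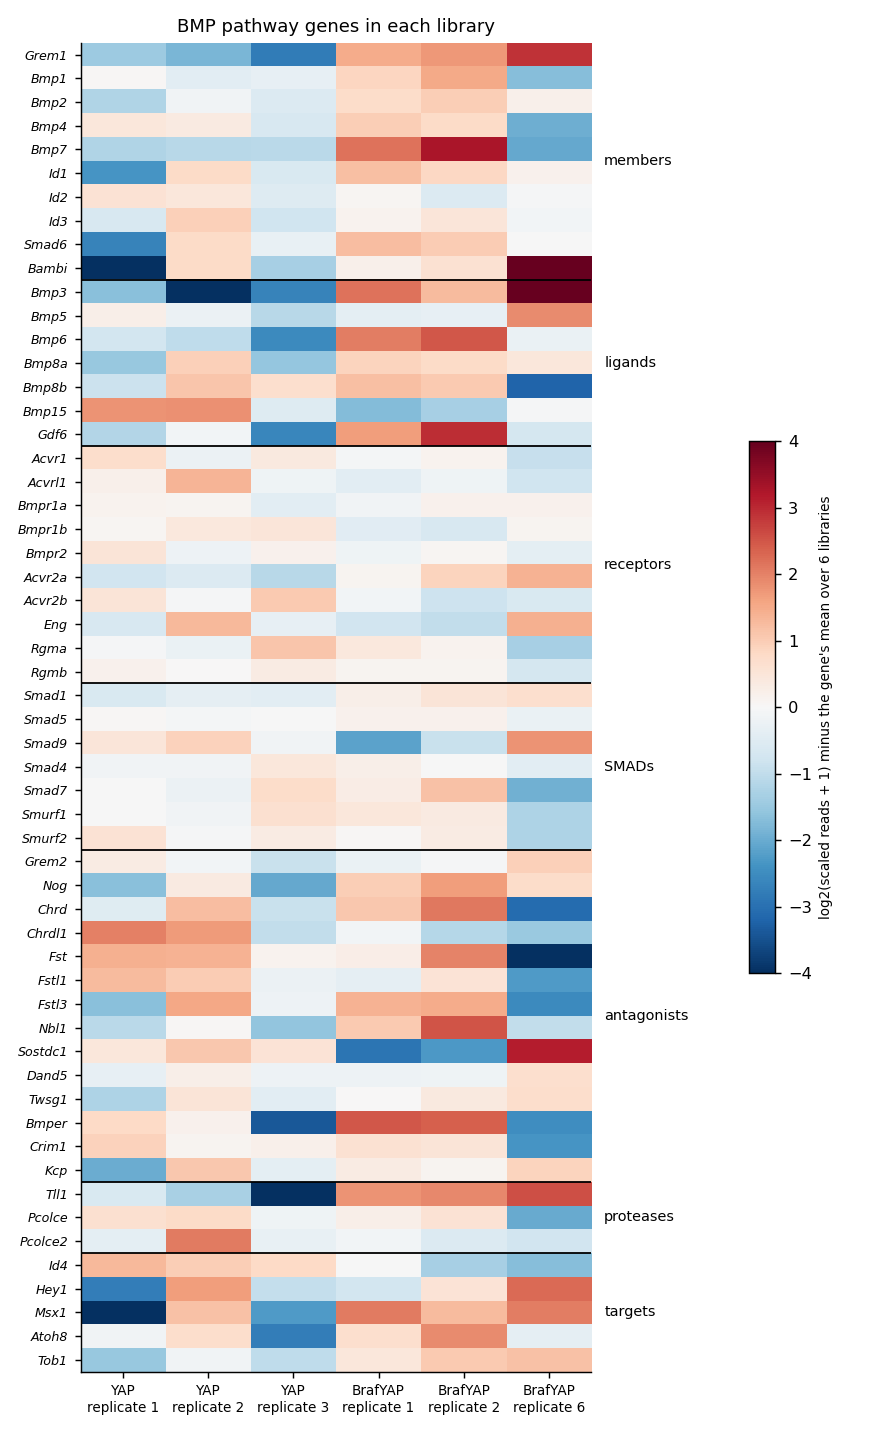
Each row is a gene of the BMP pathway, grouped by role, and each column a library; the color is log2(scaled reads + 1) minus the mean of the gene over the 6 libraries (red above, blue below, saturated beyond 4). Grem1 is blue in the 3 YAP libraries and red in the 3 BrafYAP libraries, whereas Bmp1, Bmp4 and Bmp7 are blue in BrafYAP replicate 6.

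BrafYAP replicate 6 differed from BrafYAP replicates 1 and 2 in many pathway genes, a comparison that was added after the values were seen and that has no test, since it sets 1 library against 2. On scaled reads it was at least 4-fold below both for 3 of the 10 members (Bmp1, Bmp4 and Bmp7) and for 11 of the 46 wider genes, beside 7.02% of all genes. The 11 included the antagonists Chrd, Fst, Fstl3 and Nbl1, with Fst, follistatin, at 144, 667 and 3 estimated reads in the BrafYAP libraries. It was at least 4-fold above both for 1 member (Bambi) and 5 wider genes (Bmp3, Bmp5, Eng, Smad9 and Sostdc1), beside 6.23% of all genes. Grem1 was higher in it by less than 4-fold.

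The genes whose pattern was most like that of Grem1 over the 6 libraries were found by the root mean square difference of centered log2(value + 1). The 5 closest of 7318 genes were Depp1 (0.326), Cebpd (0.419), Pthlh (0.424), Dusp28 (0.451) and Fam84a (0.480), against a median of 1.68. Cebpd encodes a transcription factor of the C/EBP family and Pthlh the parathyroid hormone-related peptide. Pthlh had deposited values of 0.0312, 0.0236 and 0.00293 against 3.22, 3.16 and 19.2, and Cebpd 0.417, 1.08 and 0.621 against 4.45, 7.67 and 21.6. Both have a step between the genotypes and a maximum in BrafYAP replicate 6, which follows from their being picked by likeness to Grem1. Pthlh, Cebpd and Fam84a also reached the minimum mean value of 1 only through the BrafYAP libraries. Only genes tested on deposited values were ranked. Bmp2, Bmp7 and Smad6, and 34 of the 46 wider genes, Bmp3 and Nog among them, therefore have no rank. Of the wider genes that were ranked Tob1 came first at rank 200 (1.02). Of the ranked members Bambi was at rank 398 (1.16), Id1 at 1487, Id3 at 2493, Bmp1 at 3213, Id2 at 4813 and Bmp4 at 6340, the last 2 less like Grem1 than the median gene. The 6 points of each comparison are the same libraries, so the likeness is a description.

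Other cell types and responses moved with the groups as follows, as summed exonic-length TPM of marker lists. A gene was counted when all BrafYAP libraries lay on one side of all YAP libraries. This held for 28.2% of all genes on deposited values (11.8% higher and 16.4% lower). On scaled reads it held for 28.7% (11.6% higher and 17.1% lower). Of 12 genes of the dissociation and stress response, 7 were higher in every BrafYAP library than in every YAP library, and the sum was 6130 to 11225 in YAP and 17305 to 23672 in BrafYAP. It was lowest in YAP replicate 1, the library that was also lowest for Id1, Smad6, Bambi and Bmp2. For Grem1, Bmp1, Bmp4 and Id2 the same library was the highest of the YAP group. Of 10 immune markers, 5 were lower in every BrafYAP library, with sums of 1352 to 2825 against 388 to 1114, and of 10 proliferation genes 7 were lower, with sums of 222 to 285 against 108 to 140. The 10 fibroblast markers, of interest because stromal cells can make Grem1, summed to 138 to 268 against 155 to 286 and overlapped. Single markers went both ways: 2 of the 10 were higher in every BrafYAP library (Dcn and Lum, log2 differences 1.09 and 2.48) and 2 lower (Col1a1 and Thy1, -1.22 and -2.47), none past the adjusted threshold. These 4 were named after their values were seen. Epithelial markers (7 genes, 7492 to 23014 against 9199 to 22681) and thyroid follicular markers (10 genes, 201 to 420 against 137 to 474) overlapped too. No gene of any of these lists was at 0 in all 6 libraries, although Tshr was at 0 in BrafYAP replicates 1 and 2. The part of the fibroblast, stress, immune and proliferation genes in the values of Grem1 and the BMP genes was not tested.

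**Figure D5:**
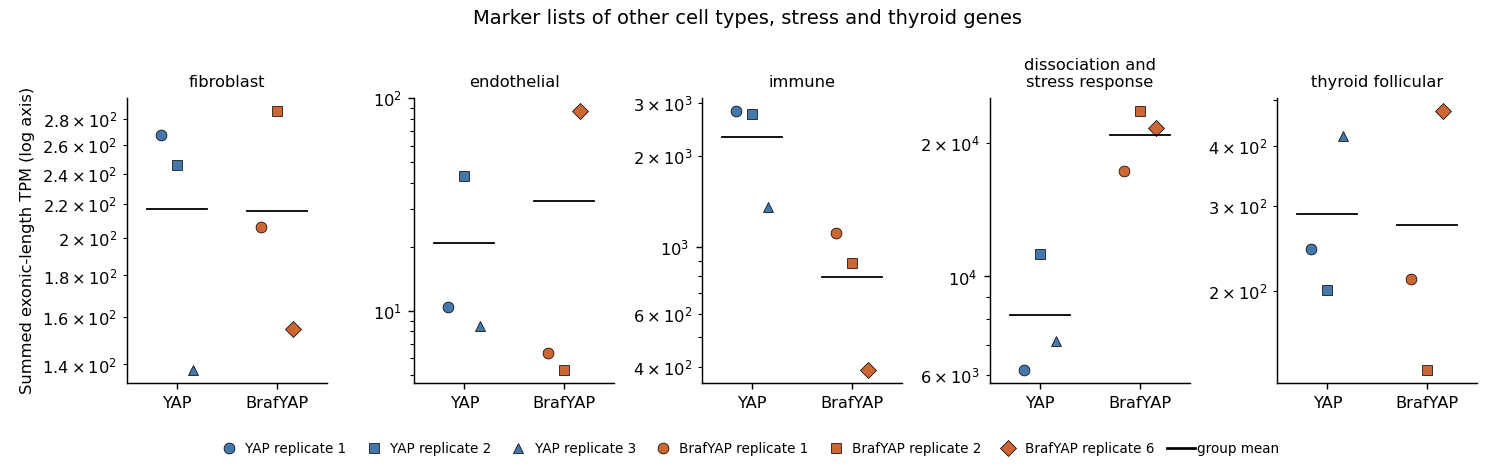
Summed exonic-length TPM (log axes, scaled separately for each list) of fibroblast, endothelial, immune, stress response and thyroid follicular marker genes in the 6 libraries, with the group means as lines. The stress sum of all 3 BrafYAP libraries is above and the immune sum below that of all YAP libraries, while the fibroblast sums overlap (138 to 268 against 155 to 286) and the endothelial sum is highest in BrafYAP replicate 6 (87.3).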

How the data were processed

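RNA of Kate-positive cells from 3 YAP and 3 BrafYAP mouse thyroid tumor samples was amplified (SMART-Seq, 12 cycles, then 8 cycles of library PCR) and sequenced by the authors. According to their processing notes and methods, reads were demultiplexed (bcl2fastq 2.2), aligned to mm10 with STAR 2.6.1d and quantified by expectation-maximization in Partek against Ensembl 95. The deposited values are TPM, made by the authors, with 0.0001 added, for 35027 genes. The column totals are 181218, not those of TPM by definition. With the genomic span 71.7 to 75.9% of low values (under 200 reads) lay within 0.05 of a whole multiple of a read, against 21.5 to 24.9% with the exonic length, so spans and exonic lengths of GENCODE M21 (34645 symbols at one locus) gave estimated reads, scaled reads (the authors' scaling between libraries, length undone) and exonic-length TPM.

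TPM are not counts, so the 2 groups were compared with limma 3.58.1 (R 4.3.3, eBayes with trend, two-sided, no block) on log2(value + 1) over the 7319 genes whose mean reached 1, and for genes below it on log2(scaled reads + 1), minimum mean 10 (16834 genes), with Benjamini-Hochberg adjustment over all genes tested and a threshold of 0.05. The labels do not say whether libraries are of separate animals, so p-values measure the spread between these samples. The paper's methods give 1 tumor per mouse without pooling, and its results another starting age for dox; the labels were followed. The members and the lists were chosen with earlier results of these data known. Named were all members, the 2 neighbours, of each wider list the gene with the highest exonic-length TPM and those with an unadjusted p under 0.05, and the 5 genes most like Grem1 (predicted genes passed over).

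Alternatives were a pseudocount of 0.1, other minimums (10 or none, and 30 scaled reads), quantile and median-ratio normalization, no trend, array weights (gene-by-gene method, since the default did not converge), scaled reads, exonic-length TPM, a replicate block and leaving out each library. One item is not reported here.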

Additional observations from a re-analysis of the deposited data

How the results depend on the processing

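Of the other values computed for single named genes, 363 were counted as the same. For genes other than Grem1 this meant the same direction and the same side of the threshold. Grem1 has no test, and for it this meant a shift smaller than the SD of the BrafYAP libraries. Another 16 values passed the threshold where the reported value had not, among them genes that reached the minimum in 1 group only, and 13 changed sign. The last 3, all of Grem1, moved by more than that SD (3.93 with a pseudocount of 0.1, 4.07 on scaled reads and 3.94 on exonic-length TPM). The number of genes past the threshold, 18 on deposited values, was 1 with a pseudocount of 0.1, 3 with a minimum mean of 10, 0 without a filter, 79 after quantile normalization, 1 with median-ratio size factors, 1 without a trend, 1393 with array weights, 0 on scaled reads, 62 on exonic-length TPM and 0 to 465 when a library was left out (465 without YAP replicate 2). On scaled reads, with 0 in the reported fit, it was 62 after quantile normalization, 20 without a trend, 2213 with array weights and 0 to 142 with a library left out (142 without BrafYAP replicate 6). Of the 9 members other than Grem1, 0 passed; with array weights 3 did (Bmp2, Bmp7 and Id1), and 0 to 1 with a library left out (Bmp7 without BrafYAP replicate 6). Of the wider pathway genes 0 passed, 10 did with array weights, and 0 to 1 with a library left out (Tob1 without YAP replicate 2). The 10 include Bmp3, Bmp6, Gdf6, Tll1 and Id4, which reached the minimum in 1 group only and so had to differ, and they are not read as calls. The cause of these shifts was not tested.

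These differences changed sign. Bmp4 was 0.065 with median-ratio size factors, 0.96 with array weights, and 0.13, 0.094 and 0.71 without YAP replicate 1, YAP replicate 2 and BrafYAP replicate 6, with a range of -0.45 to 0.71 over the libraries left out. Id2 was 0.043 and Pcolce 0.24 with array weights. Smad5 was -0.0087 after quantile normalization and -0.021 to 0.11 with a library left out (below 0 without BrafYAP replicate 1 or 2). Numbers 1 and 2 occur in both groups. The deviations of same-numbered libraries correlated at -0.048 and 0.062, within the -0.049 to 0.087 of differently numbered ones. With 2 such pairs this cannot tell whether they share more than a number. With a replicate block 0 genes passed on either scale (987 and 2532 at an unadjusted p under 0.05), 0 members passed (3 unadjusted) and 0 wider genes (14 unadjusted), and Grem1 was 2.52, Bmp4 0.42, Scg5 -0.25 and Bmp5 -0.36. The block fit rests on these 2 pairs alone, since YAP replicate 3 and BrafYAP replicate 6 have no partner, so its lack of calls is not read further. Bmp7, Smad6 and Bambi had 10, 8 and 3 estimated reads in YAP replicate 1, which limits the precision of their log2 differences.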
